A study of Mus musculus with 2 samples.

Results

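The genes described here are the nuclear-encoded subunits of the respiratory chain and of the ATP synthase, with the factors that assemble them, in mouse skin fibroblasts. They were picked by gene symbol, with earlier results of these data known. The symbols were those of the Nduf, Uqcr and Atp5 families, of Sdha to Sdhd and of the Sdhaf factors. Also included were Cox4 to Cox8, Cox10 to Cox19, Cycs and Cyc1. Of 19674 gene rows, 116 carried such a symbol, and 109 of these had at least 50 counts summed over both libraries, the minimum for a gene to be called measured. Over the full set of rows, 13534 genes were measured. Both cultures were of 1 wild-type line, MDFB in the labels. The first received vehicle and the other IL-17A, an inflammatory cytokine, and each gave 1 library, with the same batch label. The labels state neither dose nor length of treatment, nor whether the line is a single clone. With 1 library per group there was no replicate and no test: every ratio describes these 2 libraries, and its 95% interval is an exact counting interval that leaves out variation between cultures.

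The vehicle library held 24427027 counts and the IL-17A library 23559416. Levels are given as counts or as CPM, the counts relative to the TMM-scaled library size, and ratios as the log2 of IL-17A over vehicle. All 9 fibroblast markers checked, among them Col1a1, Pdgfra and Thy1, were measured, with summed levels of 56437 CPM and 42221 CPM. They did not share a direction: Col1a1 stood at 23623 CPM with vehicle and 15153 CPM with IL-17A, and Dcn at 681 CPM and 4186 CPM. The 5 keratinocyte markers summed to 2.20 CPM with vehicle and 3.17 CPM with IL-17A, the 3 endothelial ones to at most 3.91 in either library, and the 4 melanocyte ones to 2.44 and 1.04, with Tyr at 0. Of 6 leukocyte markers 4 were measured, at a summed 181 CPM with vehicle and 256 CPM with IL-17A. Most of it was Lyz2, at 153 CPM and 227 CPM. Csf1r stood at 16.3 CPM and 17.5 CPM, Adgre1 at 7.76 and 7.39, and Ptprc at 3.48 and 3.82. Cd3e was at 0. The 4 muscle markers summed to 26.2 CPM and 17.6 CPM, nearly all Acta1. The part of these other markers in the ratios below was not tested. In bulk RNA, fewer cells of a type and less RNA per cell cannot be told apart.

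The respiratory chain sits in the inner mitochondrial membrane. Complexes I and II take electrons from NADH and succinate, coenzyme Q carries them to complex III, cytochrome c carries them on to complex IV, and complex IV passes them to oxygen. Complexes I, III and IV pump protons as they do so, and complex V, the ATP synthase, makes ATP from the proton gradient. Most subunits are encoded in the nucleus, while a few core subunits of complexes I, III, IV and V are encoded in mitochondrial DNA, so each of these complexes needs both genomes. Fibroblasts in culture can make ATP both by glycolysis and by this chain.

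The members as a whole differed little between the libraries. Their summed level was 5999 CPM with vehicle and 6019 CPM with IL-17A, and their median log2 ratio was -0.02, beside 0.00 over all measured genes. No member was 2-fold higher or 2-fold lower, where 5.19% of the genes measured in these libraries were past this limit upwards and 3.69% downwards. A smaller limit was set at a level 25% higher or 20% lower with IL-17A, which is 0.32 or -0.32 on the log2 scale. Past it 5 of 109 members were higher, beside 18.3% of all genes, and 4 were lower, beside 17.0%. The 5 higher were Ndufa4l2, Atp5g2, Uqcrh, Uqcrb and Cox7a2, and the 4 lower were Cox6b2, Cox4i2, Ndufaf1 and Cox18. The other 100 members lay within the smaller limit, as did 64.7% of all genes. Among genes with 500 to 5000 summed counts, a range that limits the difference in counting error, 68 of 74 members and 73.0% of all 7552 genes lay within it. The middle of the members, from the lower to the upper quartile, ran from -0.10 to 0.12, and that of all measured genes from -0.20 to 0.22. Of the members 61 stood below a ratio of 1, beside 49.7% of all genes, and 48 above it, beside 50.3%. The number below 1 was 68 when libraries were scaled by total counts. The counting interval lay wholly above 1 for 24 members, beside 28.7% of all genes, and below 1 for 13, beside 26.5%, and with total-count scaling these numbers were 13 and 31, beside 22.6% and 34.8%. A ratio could be read to about 0.38 on the log2 scale (median half-width of the interval) for the 18 classed members with under 500 counts and to 0.09 for the 39 with at least 2000.

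**Figure D1:**
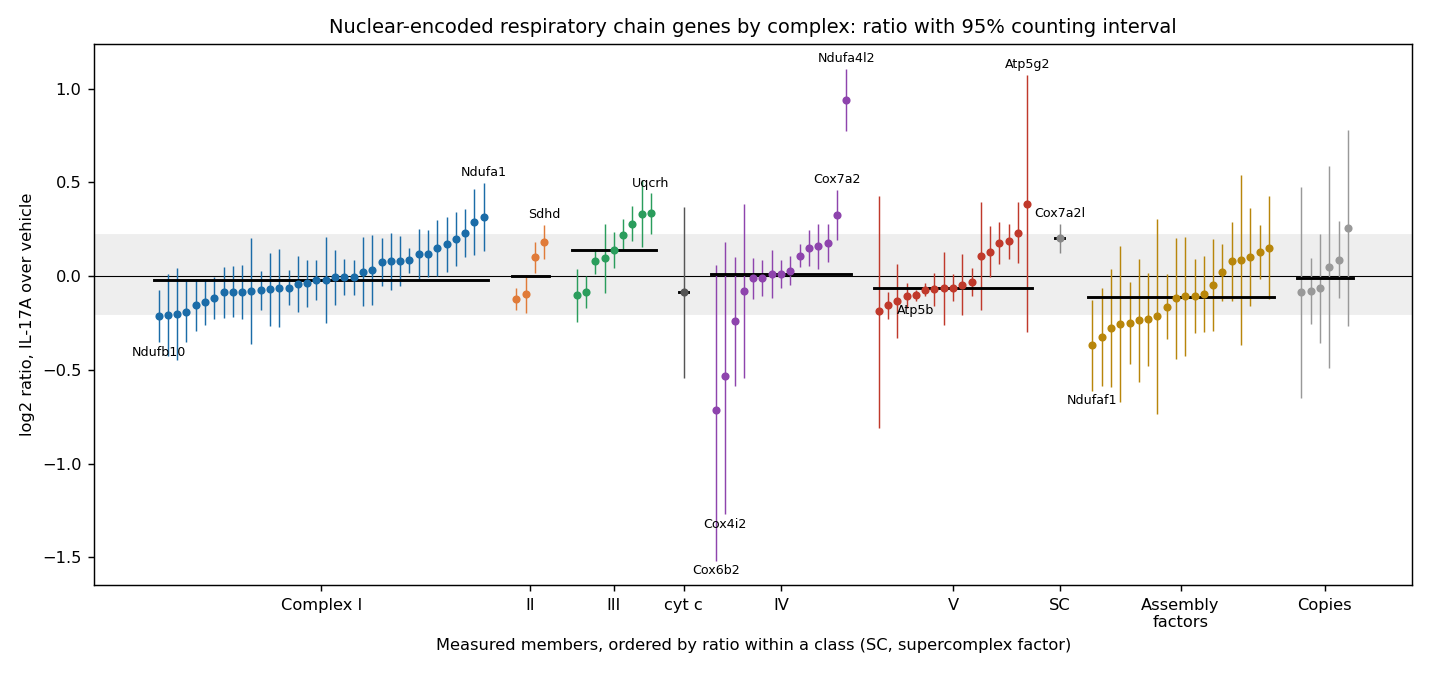
Each point is 1 measured member, ordered by its log2 ratio of IL-17A over vehicle within its class, with the 95% counting interval as a vertical line. Black bars are class medians, from -0.11 for assembly factors to 0.14 for complex III among the classes with several members, and the grey band spans the quartiles of all measured genes, -0.20 to 0.22. Ndufa4l2 stands alone at the top, at 0.94.

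By complex, the medians were -0.02 for 36 subunits of complex I, 0.00 for 4 of complex II, 0.14 for 9 of complex III, 0.01 for 15 of complex IV and -0.06 for 17 of complex V. The complex IV median changed sides with the scaling, at -0.06 by total counts and -0.03 by upper quartile. Complex III and complex V lay farthest apart among the complexes, by 0.20 on the log2 scale, a difference that does not depend on how the libraries are scaled. The summed counts gave the same order for these 2 complexes, with 606 CPM and 663 CPM for complex III (log2 ratio 0.13, interval 0.10 to 0.16) and 2299 CPM and 2198 CPM for complex V (-0.06, interval -0.08 to -0.05). For complex I the sums were 1403 CPM and 1408 CPM, and for complex II 447 CPM and 444 CPM. Complex IV summed to 823 CPM and 884 CPM (log2 ratio 0.10, interval 0.08 to 0.13). These intervals leave out the choice of scaling: by total counts the medians were 0.07 for complex III and -0.13 for complex V. The interval lay above 1 for 6 of 9 complex III subunits, beside 28.7% of all genes. It lay below 1 for none of them, beside 26.5%. The median of summed counts was 3525 for these subunits and 1269 for all measured genes, and more counts narrow the interval. By total counts the complex III numbers were 4 above and 2 below, beside 22.6% and 34.8% of all genes, and by upper quartile they were 5 and 2, beside 24.9% and 31.1%.

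Complex I, the NADH dehydrogenase, showed no common direction. All 36 measured subunits lay within the smaller limit, beside 64.7% of all genes. Of these subunits 22 stood below a ratio of 1, beside 49.7% of all genes, and 14 above, beside 50.3%. The intervals of 25 spanned 1, as did those of 6072 of all 13534 measured genes. The 7 core subunits, which carry the electrons through a flavin and iron-sulfur clusters to coenzyme Q, had a median of -0.01 and the 29 accessory ones -0.02. Ndufs1, the largest core subunit, had 1920 counts under vehicle and 1759 under IL-17A, which is 76.8 CPM and 76.4 CPM. Ndufv1, which binds NADH and the flavin, stood at 73.9 CPM and 73.5 CPM. Both were at a log2 ratio of -0.01 (intervals -0.10 to 0.09).

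The highest complex I subunits were all accessory, as were the lowest and 29 of the 36 measured. Ndufa1, a small membrane subunit encoded on the X chromosome, had 470 and 538 counts (0.32, interval 0.13 to 0.50), just inside the smaller limit. The row listed as Ndufb1-ps, whose symbol is that of a pseudogene and which GENCODE calls a long noncoding RNA, had 503 and 565 (0.29, interval 0.11 to 0.46). Its exons overlap Cpsf2 on the opposite strand over 12.7% of their bases. Ndufa7 had 945 and 1019 (0.23, interval 0.10 to 0.36). At the other end stood Ndufb10 with 966 and 766 counts (-0.21, interval -0.35 to -0.08), Ndufc1 with 385 and 307 (-0.21, interval -0.43 to 0.01) and Ndufb2 with 315 and 252 (-0.20, interval -0.45 to 0.04). The 8 Ndufs genes had a median of -0.01, the 13 Ndufa genes -0.02 and the 10 measured Ndufb genes -0.01. The 3 Ndufv genes, with a median of -0.07, and the 2 Ndufc genes, with -0.15, all stood below 1, beside 49.7% of all genes. The interval lay below 1 for 1 of the 3 Ndufv genes and for no Ndufc gene, beside 26.5% of all genes. Ndufb4, with 19 and 24 counts, was under the minimum.

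In complex II, succinate dehydrogenase, the catalytic pair and the membrane anchors stood on opposite sides of 1. Sdha, the flavoprotein that oxidizes succinate, had 5119 counts under vehicle and 4332 under IL-17A (-0.12, interval -0.18 to -0.06). Sdhb, which carries the iron-sulfur clusters, had 1749 and 1506 (-0.10, interval -0.20 to 0.00). Sdhc, an anchor that helps bind haem and quinone, had 2432 and 2398 (0.10, interval 0.02 to 0.18), and Sdhd, the other anchor, had 1888 and 1971 (0.18, interval 0.09 to 0.27). These 4 values kept their sides under all 4 scalings tried. None was past the smaller limit.

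Complex III, the cytochrome bc1 complex, had 2 of its 9 subunits past the smaller limit upwards, a share near the 18.3% of all genes. Uqcrh, the hinge protein that touches cytochrome c1, had 1296 counts under vehicle and 1503 under IL-17A and was 1.26-fold higher (log2 0.33, interval 0.23 to 0.44). Uqcrb, a small subunit near the quinone site, had 487 and 564 and was also 1.26-fold higher (0.33, interval 0.15 to 0.51), and 25.4% of its 50-base stretches are shared with 4 annotated pseudogenes. Uqcrfs1, the Rieske iron-sulfur protein, had 1700 and 1899 (0.28, interval 0.18 to 0.38). The core proteins Uqcrc2 and Uqcrc1 stood at 0.22 (interval 0.14 to 0.30) and 0.08 (interval 0.01 to 0.14). Cyc1, cytochrome c1, which hands electrons to cytochrome c, was on the other side with 2390 and 2076 counts (-0.08, interval -0.17 to 0.00). Uqcr10, a small subunit, was the lowest with 912 and 781 counts (-0.10, interval -0.24 to 0.04). The other small subunits Uqcrq and Uqcr11 stood at 0.14 and 0.09. The 7 subunits above and the 2 below 1 stayed on those sides under all 4 scalings, although Uqcrh and Uqcrb were inside the smaller limit with total-count and upper-quartile scaling.

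Cycs, cytochrome c itself, was low in both libraries, with 90 counts under vehicle and 78 under IL-17A (-0.09, interval -0.54 to 0.37). Its level per kilobase of exon was 1.15 CPM with vehicle, against 62.9 CPM per kilobase for its electron donor Cyc1. Of the 50-base stretches of its annotated transcripts, 26.1% also occur in transcripts of other genes, 25.3% in Gm10053 alone. How reads that fit several genes were counted is not given in the sources used here, and the part of shared sequence in this level was not tested.

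Complex IV, cytochrome c oxidase, had both the highest and the lowest members. Among the 11 common subunits the median was 0.03, and 8 stood above 1, beside 50.3% of all genes. Of these 8, Cox5b, Cox6a1 and Cox8a were below 1 with total-count and upper-quartile scaling. Cox4i1, the largest nuclear subunit, had 4469 counts under vehicle and 4433 under IL-17A (0.11, interval 0.05 to 0.17). Cox6b1, which faces the intermembrane space, stood at 0.15 (interval 0.06 to 0.25), and the small membrane subunits Cox8a and Cox6a1 at 0.03 (interval -0.05 to 0.11) and 0.01 (interval -0.06 to 0.09). Cox5a, a matrix-facing subunit, had 1850 and 1692 (-0.01, interval -0.10 to 0.09). Cox7a2, a small membrane subunit, had 860 and 993 and was the highest of the common ones, 1.26-fold (0.33, interval 0.19 to 0.46). Cox7c, also small, was the lowest with 163 and 127 counts (-0.24, interval -0.59 to 0.10), and 22.1% of its 50-base stretches are shared with 3 annotated pseudogenes. Cox7a2l, which joins complexes III and IV in supercomplexes, had 2616 and 2769 counts (0.20, interval 0.12 to 0.28).

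The isoforms of complex IV subunits did not stand on 1 side. Ndufa4l2, a paralogue of Ndufa4 known as a hypoxia-inducible gene, had 460 counts under vehicle and 811 under IL-17A, or 18.4 CPM and 35.2 CPM. It was 1.92-fold higher (log2 0.94, interval 0.77 to 1.11), the highest ratio of all measured members and the only one past the smaller limit upwards with total-count scaling, at 0.87. Ndufa4, the common form, which belongs to complex IV in spite of its name, had 1554 and 1617 counts (0.18, interval 0.08 to 0.28). Of the counts of this pair, Ndufa4l2 took 22.8% (exact 95% interval 21.0 to 24.7) with vehicle and 33.4% (interval 31.5 to 35.3) with IL-17A, a share that does not depend on scaling. Ndufa4l2 lies on chromosome 10, at chr10:127514967-127517154 on the plus strand of GRCm38, and its exons overlap those of Shmt2 on the opposite strand over 2.92% of their bases, and Shmt2 stood at -0.12.

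Cox4i2, the isoform of Cox4i1 that is also known to be induced by low oxygen, stood on the other side, with 44 counts under vehicle and 28 under IL-17A (-0.53, interval -1.27 to 0.18). Cox6b2, known from testis, had 41 and 23 (-0.71, interval -1.52 to 0.06) and was the lowest member measured. Cox6a2, a heart and muscle form, had 86 and 75 (-0.08, interval -0.54 to 0.39). The intervals of these 3 spanned 1. Cox7a1, another muscle form, with 18 and 7 counts, and Cox8b, with 0 and 1, were under the minimum. Of the counts of its pair, Cox6a2 took 2.85% with vehicle and 2.69% with IL-17A, Cox6b2 took 2.31% and 1.28%, Cox7a1 2.05% and 0.70%, and Cox4i2 0.975% and 0.628%. Of the isoforms, Ndufa4l2 alone made up a large share of its pair.

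**Figure D2:**
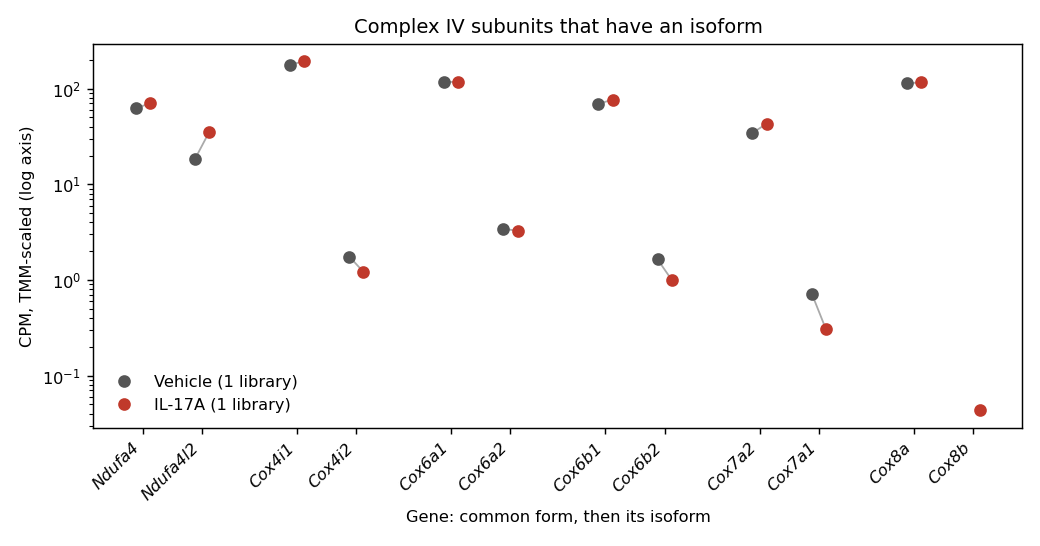
Level in CPM on a log axis of complex IV subunits and their isoforms, 1 point per library, grey for vehicle and red for IL-17A. Ndufa4l2 is at 18.4 CPM and 35.2 CPM, whereas the next highest isoform, Cox6a2, lies at 3.44 CPM and 3.26 CPM, and the vehicle value of Cox8b, at 0 counts, is not drawn.

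Complex V, the ATP synthase, held the most abundant members, and its catalytic head stood slightly below 1. Atp5b, the catalytic beta subunit, had 21232 counts under vehicle and 18198 under IL-17A (-0.10, interval -0.13 to -0.07). Atp5a1, the alpha subunit, had 13771 and 12054 (-0.07, interval -0.11 to -0.04). Atp5c1, the gamma subunit that forms the rotating shaft, had 3397 and 2806 (-0.16, interval -0.23 to -0.08), and Atp5d, the delta subunit of the shaft's foot, stood at -0.11 (interval -0.17 to -0.04). Atp5e, the epsilon subunit, was the fifth part of the head and stood at 0.13 (interval -0.01 to 0.26). The interval lay below 1 for 4 of these 5 genes, beside 26.5% of all genes. The median of summed counts was 7300 for these 5 genes and 1269 for all measured genes, and more counts narrow the interval.

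The stalk and membrane subunits of complex V spread to both sides, with a median of -0.03. Of these, 5 stood below 1 and 4 above, beside 49.7% and 50.3% of all genes. Atp5mpl, a small membrane subunit, had 586 and 633 counts (0.23, interval 0.07 to 0.40), Atp5j, the coupling factor of the stalk, 1817 and 1900 (0.18, interval 0.09 to 0.28), and Atp5l, the membrane subunit g, 52 and 42 (-0.19, interval -0.81 to 0.43). Of the 3 genes that encode the identical mature subunit c of the rotor, Atp5g3 made up most, with 3371 and 2973 counts (-0.06, interval -0.13 to 0.01). Atp5g1 had 462 and 388 (-0.13, interval -0.33 to 0.07). Atp5g2 had 35 and 42, a ratio past the smaller limit at 0.38 with an interval of -0.30 to 1.07 that spanned 1, and 36.7% of its 50-base stretches occur in pseudogene transcripts.

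The assembly factors, which insert cofactors and join subunits and are not part of the finished complexes, had the lowest median of the larger classes. Of 20 factors 14 stood below 1, beside 49.7% of all genes. The median of the factors was -0.11, beside -0.01 for the 82 measured subunits and -0.01 for 30 assembly factors outside the symbol rule. By complex the medians were -0.17 for 8 factors of complex I, -0.17 for 4 of complex II and -0.08 for 8 of complex IV. Ndufaf1, which acts early in complex I assembly, had 344 counts under vehicle and 245 under IL-17A and was 1.29-fold lower (-0.37, interval -0.61 to -0.13). Cox18, which helps insert the mitochondrially encoded subunit Cox2, had 291 and 214 and was just past the smaller limit (-0.32, interval -0.58 to -0.06). Cox16, another complex IV factor, stood at -0.28 (interval -0.59 to 0.04), with exons that overlap Gm20498 on the same strand. The highest were Ndufaf3 with 222 and 227 counts (0.15, interval -0.12 to 0.43), Sdhaf2, which attaches the flavin to Sdha, with 776 and 781 (0.13, interval -0.02 to 0.27), and Ndufaf2 with 243 and 240 (0.10, interval -0.16 to 0.37). The interval lay below 1 for 3 factors and above 1 for none, beside 26.5% and 28.7% of all genes. With total-count and with upper-quartile scaling it lay below 1 for 6 factors, beside 34.8% and 31.1% of all genes, and above 1 for none. These genes have few counts, a median of 528 summed over both libraries, so that most ratios within 0.2 of 0 could not be set apart from 0 by counting.

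The remaining 6 measured rows carry symbols of pseudogenes or retrogene copies. Their ratios ran from -0.09 for Ndufab1-ps to 0.26 for Ndufs6b, and every interval spanned 1. Of the 50-base stretches of Ndufab1-ps, 74.2% occur in Ndufab1, and of those of Cox6c2, 52.7% occur in Cox6c, so that the counts of copy and parent are uncertain. Apart from these 2, none of the 105 members compared had over 50% of its annotated 50-base stretches in another gene. Genes that overlap a member were left out, and 54 members shared none. Stretches were taken from all annotated transcripts of a gene, so the shared part of its main transcript can be larger. Atp5l had 6487 stretches, 8.73% of them shared, beside an exon length of 544 bases. Atp5pb, Atp5md, Atp5pb-ps and Ndufs5-ps were not compared. The 90 members with up to 10% shared had a median log2 ratio of -0.01 and the 13 with 10% to 50% had -0.06. Exons of 35 members overlapped another gene's on the opposite strand and those of 6 on the same strand.

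**Figure D3:**
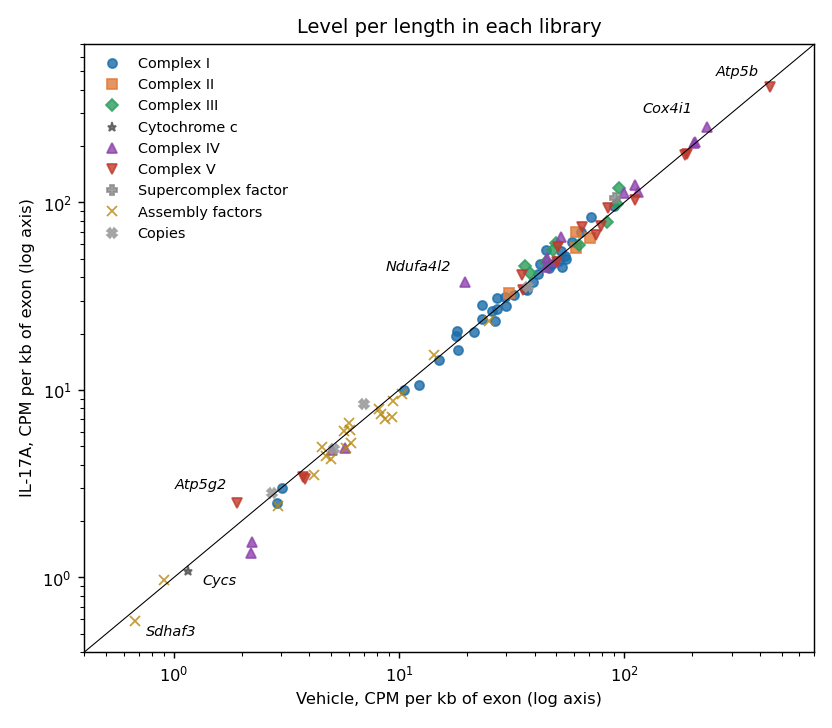
Level of the 105 measured members with an exon length in the annotation, in CPM per kilobase of annotated exon, vehicle on the horizontal and IL-17A on the vertical log axis, with the line of equal levels. Points follow the line over the whole range, from Sdhaf3 at 0.68 to Atp5b at 443 with vehicle, and Ndufa4l2 stands above it.

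Exon lengths were found for 105 of the 109 measured members, and Atp5pb, Atp5md, Atp5pb-ps and Ndufs5-ps were not placed. Per kilobase of exon, levels in the vehicle library ran from 0.68 CPM for Sdhaf3, an assembly factor, to 443 CPM for Atp5b. After Atp5b came Cox4i1 at 234 CPM per kilobase, Cox8a at 207 and Cox6a1 at 205, then Atp5a1 at 189.6 and Atp5g3 at 186. With IL-17A the same 6 of these 105 genes led, with Atp5b at 413 and Cox4i1 at 252. Ndufa4l2 stood at 19.7 with vehicle and 37.7 with IL-17A, against 99.6 and 113 for Ndufa4. Without replicates, neighbours such as Cox8a and Cox6a1 cannot be ranked.

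Nuclear respiratory factor 1 (NRF-1) and the ETS factor GABP are known to bind promoters of many of these genes. RefSeq promoter windows of GRCm38.p6, from 250 bases before to 50 after the start, were found for 83 of the 103 classed members. The core letters GCATGCGC of the NRF-1 motif, searched on both strands, occurred in 13 of these 83 (15.7%) and in 3.05% of the 27025 genes with a window. The ETS letters CCGGAAG occurred in 26 members (31.3%) and in 9.93% of all genes. Other letters were also more frequent in members. TGACGTCA, the CRE motif, occurred in 5 members (6.02%) and in 2.03% of all genes. AAGATGG, the YY1 motif, occurred in 13 members (15.7%) and in 7.28% of all genes. The 27025 genes were not limited to measured ones, whereas the members were. The letters ACGTG, which hold the core of the HIF motif and of other motifs such as E-boxes, occurred in 19 members (22.9%) and in 21.8% of all genes. The median log2 ratio was -0.06 for the 13 members with the NRF-1 letters and -0.04 for the 70 without, and -0.06 with and -0.04 without the ETS letters. A match is a description of the sequence and not a site of binding. As examples, stretches of 120 bases from before the RefSeq start are shown for 1 gene each of complexes I, II, IV and V and for Cycs. They read 5′ to 3′ on the gene's strand, with the NRF-1 letters in capitals. For Cox6a1 the letters lie 152 bases before the RefSeq start and the stretch ends upstream of it, whereas the other 4 stretches end at the RefSeq start. GENCODE places the start of Sdhb at chr4:140961203 and that of Atp5k at chr5:108434448, inside their stretches. By these starts the capital letters of Sdhb lie after the start, inside the gene, and those of Atp5k lie across it. For Cycs, unlike the other 4 genes, the end of the RefSeq window was not found in a GENCODE transcript. Where both strands match, the matches overlap and form GCGCATGCGC. The windows are chr17:56717642-56717761 (plus strand) for Ndufa11, chr4:140961151-140961270 (plus) for Sdhb, chr6:50566570-50566689 (minus) for Cycs, chr5:115349041-115349160 (minus) for Cox6a1 and chr5:108434400-108434519 (minus) for Atp5k.
Ndufa11: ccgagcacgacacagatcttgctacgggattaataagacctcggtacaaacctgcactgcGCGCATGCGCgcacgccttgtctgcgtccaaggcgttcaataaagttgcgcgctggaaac
Sdhb: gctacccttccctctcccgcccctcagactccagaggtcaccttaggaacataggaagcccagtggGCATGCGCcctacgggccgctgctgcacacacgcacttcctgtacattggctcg
Cycs: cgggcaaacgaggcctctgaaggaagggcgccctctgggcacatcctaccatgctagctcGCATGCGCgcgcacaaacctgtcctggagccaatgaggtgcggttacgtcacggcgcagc
Cox6a1: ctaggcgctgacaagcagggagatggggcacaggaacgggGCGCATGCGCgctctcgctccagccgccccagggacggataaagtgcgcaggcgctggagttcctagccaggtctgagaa
Atp5k: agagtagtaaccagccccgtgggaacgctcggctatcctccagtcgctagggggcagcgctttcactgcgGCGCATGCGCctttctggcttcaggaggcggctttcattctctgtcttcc
These 5 genes stood at 0.17, -0.10, -0.09, 0.01 and -0.06 on the log2 scale, all within the smaller limit.

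The genes of the mitochondrial DNA gave the partner subunits of complexes I, III, IV and V. Of 13 such genes 10 were measured, with a median of -0.03, a summed level of 6452 CPM with vehicle and 6203 CPM with IL-17A, and none at 2-fold. mt-Co1, a catalytic subunit of complex IV, had 64691 and 58184 counts (-0.03, interval -0.05 to -0.02), and mt-Nd4 of complex I had 8886 and 7449 (-0.13, interval -0.18 to -0.09). mt-Co2 had only 48 and 59 counts (0.42, interval -0.16 to 1.00) and mt-Co3 64 and 77 (0.39, interval -0.11 to 0.89). mt-Nd6 had 139 and 151 (0.24, interval -0.10 to 0.58). Every 50-base stretch of mt-Co2 and 99.9% of those of mt-Co3 also occur in annotated pseudogenes. So do 99.5% of those of mt-Atp6, which had 34 and 33 counts, 62.2% of those of mt-Nd4 and 51.1% of those of mt-Co1. The counts of these genes are therefore uncertain. For mt-Nd3 and mt-Nd4l, both under the minimum, the shared parts were 98.0% and 98.8%. No stretch of mt-Atp8, also under the minimum with 6 and 7 counts, or of mt-Nd6 occurred in an annotated pseudogene.

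**Figure D4:**
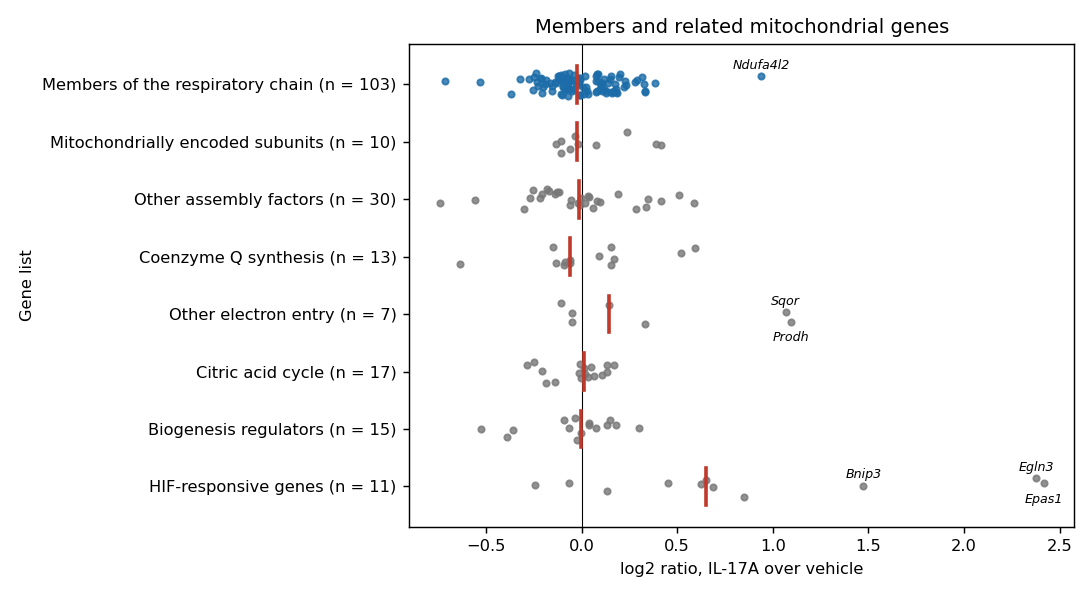
Log2 ratio of IL-17A over vehicle, 1 point per measured gene, for the 103 measured members with a class (copies left out) and 7 related lists, with list medians as red bars. Medians lie between -0.06 and 0.14 except for the HIF-responsive genes, at 0.65, and Ndufa4l2, at 0.94, is the highest point among the members.

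Related lists, also chosen with earlier results of these data known, describe the chain's surroundings. Of 11 genes that respond to hypoxia-inducible factors or encode them, 9 stood above 1, beside 50.3% of all genes. In this list 3 were at least 2-fold higher, beside 5.19% of all genes, and the median was 0.65. Epas1, which encodes HIF-2 alpha, had 2123 and 10449 counts (2.42), Egln3, a prolyl hydroxylase, 272 and 1300 (2.38), Bnip3, a mitophagy receptor, 1210 and 3092 (1.47), and Pdk1, the kinase that restrains pyruvate dehydrogenase, 1099 and 1825 (0.85, interval 0.74 to 0.96). Of 7 measured genes that feed electrons into coenzyme Q beside complexes I and II, 2 were at least 2-fold higher: Prodh, proline dehydrogenase, with 32 and 63 counts (1.10, interval 0.46 to 1.76), and Sqor, sulfide quinone oxidoreductase, with 221 and 426 (1.07, interval 0.83 to 1.31). Sqor was just inside 2-fold, at 0.999, with total-count scaling. Gpd2, the mitochondrial glycerol phosphate dehydrogenase, stood at 0.33 (interval 0.18 to 0.49) and Etfdh, which takes electrons from fatty acid oxidation, at 0.14 (interval 0.02 to 0.26).

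The other lists had medians near 0 and no measured gene at 2-fold. For 17 genes of the citric acid cycle and pyruvate dehydrogenase the median was 0.01. All lay within the smaller limit, beside 64.7% of all genes. Pdha1, a pyruvate dehydrogenase subunit, was the farthest with 6703 and 5062 counts (-0.28, interval -0.34 to -0.23), then Idh2 at -0.25, Fh1 at -0.21 and Idh3a at -0.19. For 13 genes of coenzyme Q synthesis and handling the median was -0.06. Pdss1, which makes the isoprenoid tail, had 169 and 100 counts (-0.64, interval -1.01 to -0.27), Coq8a 44 and 61 (0.59), Coq10b, a coenzyme Q binding protein, 792 and 1046 (0.52, interval 0.39 to 0.66), and Pdss2 stood at 0.17. For 15 measured regulators of mitochondrial biogenesis the median was 0.00. Nrf1, which encodes NRF-1, had 975 and 876 counts and stood at -0.03, and Tfam, the factor that packages and transcribes mitochondrial DNA, had 696 and 639 and stood at 0.00. These 2 were named after their values were seen. The farthest were Tfb1m at -0.53 (interval -0.94 to -0.12), Ppargc1b at -0.39, Polg2 at -0.36 and Tfb2m at 0.30. Ppargc1a, which encodes the coactivator PGC-1 alpha, was under the minimum of 50 with 5 and 21 counts (2.19, interval 0.74 to 3.95), and was likewise named after its values were seen. Of 30 assembly factors outside the symbol rule 17 stood below 1, beside 49.7% of all genes. The median of these factors was -0.01. Their interval lay above 1 for 6 and below 1 for 4, beside 28.7% and 26.5% of all genes. Lyrm7, a complex III factor, had 80 and 44 counts (-0.74, interval -1.31 to -0.19), Cox20, a complex IV factor, 192 and 120 (-0.56, interval -0.90 to -0.22), Higd2a, a supercomplex factor, 667 and 924 (0.59, interval 0.45 to 0.74), and Coa7, a complex IV factor, 194 and 254 (0.51, interval 0.23 to 0.79).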

How the data were processed

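RNA of 2 cultures was sequenced. Per the labels' protocols, a PureLink kit gave the RNA and Illumina's stranded mRNA kit the libraries, and STAR, featureCounts and mm10 are named in the submitters' processing notes. For versions, annotation, strand setting and reads that align to several places, the entry is: not given in the sources used here. Each library has 1 column of raw counts by gene symbol, deposited by the authors without normalization.

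TMM factors came from edgeR 4.0.16 (R 4.3.3). The log2 ratio was taken for genes with at least 50 summed counts, with an exact 95% interval by Clopper-Pearson. It covers counting error only. PCR copies were not marked by molecular identifiers, so copied reads can make the interval too narrow. A count of 0 allows up to 3 counts, 0.123 CPM with vehicle and 0.127 CPM with IL-17A. Limits of 2-fold and of 0.32 on the log2 scale are rules of size. The calculation was tried on simulated counts with counting error alone, which cannot show how it handles variation between cultures.

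Members, classes and lists were chosen with earlier results of these data known. Genes named are the 3 highest and 3 lowest of each class, every member past 2-fold, fixed core subunits and isoforms, and up to 4 genes of each related list with the highest absolute ratio. One gene of this rule is not reported here. Other genes were named after their values were seen. Positions, exon lengths, overlaps and shared 50-base stretches came from GENCODE M21 (GRCm38, the assembly also known as mm10), where 112 of 116 symbols were found, and promoters from RefSeq. Settings varied were the scaling, the minimum, a prior count, summed counts and the set of genes.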

Additional observations from a re-analysis of the deposited data

How the results depend on the processing

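No paired analysis was possible because each group held 1 library, and for the same reason no replicate could be left out. Scaling by median of ratios kept every value within its counting interval or count. With total-count scaling 8 genes named by the rule left their counting interval, among them Atp5a1, Atp5b and Cox4i1. With upper-quartile scaling 2 did, Atp5a1 and Atp5b. With total-count scaling the median of all measured genes was -0.07 and that of the members -0.09, against 0.00 and -0.02 with TMM, and with upper-quartile scaling they were -0.04 and -0.06. The number of members at least 0.32 higher on the log2 scale, 5 with TMM, was 1 with total-count and 2 with upper-quartile scaling, and 8 with a minimum of 1 count. The number at least 0.32 lower, 4, was 2 with a minimum of 200 counts. With a minimum of 10 counts 1 member was 2-fold higher and 1 lower, and with a minimum of 1 count 2 and 1, all with 25 or fewer counts. The complex IV median of 0.01 was 0.10 as a ratio of summed counts and -0.06 with total-count scaling. The median of the mitochondrially encoded genes was -0.0937 with total-count scaling, -0.0645 with upper-quartile scaling and -0.0591 with a minimum of 200 counts, that of the citric acid cycle -0.0541 with total-count scaling, and that of the HIF-responsive genes 0.58 and 0.61 with total-count and upper-quartile scaling. Cycs had too few counts for the minimum of 200. Counting pseudogene copies with their parents' complex, chosen after seeing the data, and leaving out isoforms moved no class median out of its interval. Of 109 members 102 stayed on the same side of 1 under all 4 scalings. Variation between cultures was not measured, and ratios of members with few counts are limited by depth.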
